A study of Mus musculus with 32 samples.

Results

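The shared response to bethanechol (Bch), an agonist of muscarinic acetylcholine receptors, was taken over all 8 pairs of treated and untreated cells from murine colonoids, which are epithelial organoids grown from colonic crypts. All 32 of the 32 libraries entered. The 2 technical replicates (TR1 and TR2) of each biological replicate (BR) and treatment were added, which gave 16 sums, and Bch was compared with untreated as 1 common effect with BR as a block. A gene counted as moving the same way when at least 7 of the 8 pairs had the same sign. The pairs came from crypts of Lgr5-EGFP-IRES-CreERT2 mice, taken in the proximal colon, and no other allele or treatment was named for any of the groups. In this line a cassette in the Lgr5 locus drives EGFP and an inducible Cre, so a sorted cell is chosen by EGFP from that locus and not by Lgr5 protein. Colonoids were plated in Matrigel with L-WRN medium, and treated wells received 250 nM Bch, renewed each day for 4 days. BR1 to BR4 were labelled male, with sorted Lgr5+ cells as the source and the RNeasy Plus Micro kit. BR7 to BR10 carried no sex in their sample labels and were labelled colonic organoids, with the RNeasy Mini kit, although a number of sorted cells was given for them too. The series counted 4 female and 4 male mice. Sex, source and kit changed together between these sets of 4 pairs and cannot be told apart. Mice were matched by age, and the ages themselves were not given in the sources used here.

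Muscarinic M1, M3 and M5 receptors couple to Gq, which activates phospholipase C, raises inositol trisphosphate and releases calcium from the endoplasmic reticulum. In epithelia the same receptors can transactivate the EGF receptor and the ERK pathway, and in the gut acetylcholine drives chloride and mucus secretion. Lgr5, a receptor for R-spondins that strengthens Wnt signalling, marks the stem and progenitor cells of the crypt base, and L-WRN medium itself supplies Wnt3a, R-spondin and Noggin, so these cells were cultured under strong Wnt stimulation with or without Bch.

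The 32 libraries held from 267146 to 2119938 UMIs (unique molecular identifiers, each a counted cDNA molecule) and the sums from 557512 in untreated BR3 to 4050342 in Bch-treated BR8. Sorted cells numbered 13114 untreated and 3504 with Bch in BR1, 2361 and 3000 in BR3 and 2401 and 3000 in BR9. In the other pairs both numbers were 3000, and the part of these differences in the results was not tested. At 3 counts as the limit that a count of 0 allows, a gene with no UMI could be present at up to 5.38 CPM (counts scaled to a total of 1e+06) in the shallowest sum and 0.741 CPM in the deepest, which covers counting error only. Marker levels in this paragraph are CPM of the library total. Epithelial markers were high in every sum, with Epcam between 738 and 1407 CPM, and Lgr5 was present in every sum at 12.9 to 41.3 CPM. The 5 markers of mesenchymal, immune, endothelial and glial cells that the table lists summed to 5.38 CPM or less untreated and 7.50 CPM or less with Bch, and Col1a1, Ptprc, Pecam1 and S100b were each at 0 in 14 of 16 sums. Goblet and enteroendocrine genes were also present in every sum, the goblet marker Tff3 at 602 to 1577 CPM and the enteroendocrine marker Chga at 25.9 to 78.1 CPM. In such bulk samples, fewer cells of a type and less RNA per cell cannot be told apart. Xist lay between 11.9 and 25.9 CPM in BR1 to BR4 and between 45.5 and 160.1 CPM in BR7 to BR10, and Y-linked Eif2s3y between 38.7 and 64.8 CPM and between 2.39 and 8.56 CPM. The ranges of the sets did not overlap for either gene, yet each gene was counted in all 16 sums, and the part of this background in the results was not tested.

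The receptors of Bch themselves lay at the limit of these counts. Chrm3, which encodes the M3 receptor, was at 0 in 10 of 16 sums and reached at most 4 UMIs in a sum, and Chrm1 was at 0 in 5 of 16 sums and reached at most 5 UMIs. Chrm2, Chrm4 and Chrm5 were not among the genes of the table used here. Neither Chrm1 nor Chrm3 passed the filter on low counts, so a change in receptor mRNA was not detectable at this depth.

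No gene passed the threshold for a common effect of Bch. Of 9366 genes tested, 0 had an adjusted p under 0.05 (edgeR's quasi-likelihood test, Benjamini-Hochberg adjustment), and the smallest adjusted p was 0.383. An unadjusted p under 0.05 was found for 510 genes (5.45% of those tested), and their estimates were above 0 for 305 (3.26%) and below 0 for 205 (2.19%). DESeq2's Wald test and limma's voom with quality weights also gave 0 genes past the adjusted threshold, with 368 and 613 genes under an unadjusted p of 0.05. This count depended on the filter on low counts. Without it 15 genes passed, all higher with Bch and all also among the 9366 genes, namely Rps24-ps3, Gm8357, Rps26, Rpl39, Gapdh, CT010467.1, Gm2830, Gm6030, Mir6236, Rpl35a, H1f4, Gm12182, Gm24601, Rps26-ps1 and H1f5. These 15 encode ribosomal proteins, linker histones and Gapdh or are annotated as ribosomal RNA, a miRNA and processed pseudogenes, and they were named after their values were seen.

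By the sign of the pairs, 749 genes moved the same way in at least 7 of 8 pairs, which was 8.00% of the genes tested. Of these, 400 (4.27%) were higher and 349 (3.73%) were lower with Bch, and with DESeq2 size factors 379 were higher and 385 lower, so the order of the directions turned with the scaling. Only 54 genes (0.577%) were higher and 41 (0.438%) lower in all 8 pairs. Just outside the rule, 1102 genes were higher and 1082 lower in 6 of 8 pairs, against 346 and 308 in exactly 7. Both an unadjusted p under 0.05 and the rule of 7 pairs were met by 179 higher genes (1.91%) and 115 lower genes (1.23%). The plot of genes by number of pairs shows how evenly the signs fell around an equal split.

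**Figure D1:**
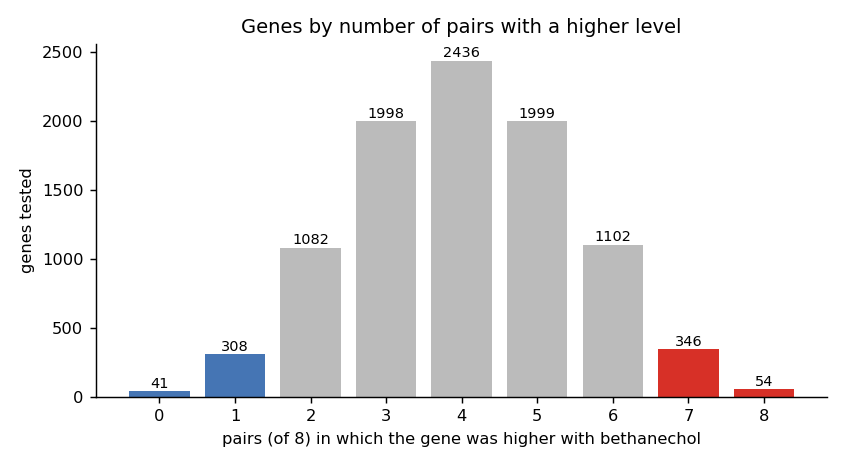
Number of genes tested (y axis) by the number of pairs, of 8, in which the level was higher with Bch (x axis), with genes lower in at least 7 pairs in blue and higher in at least 7 pairs in red. Most genes sit in the middle bars, with 2436 genes higher in 4 of 8 pairs, and the outer bars hold 41 and 54 genes.

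The data bounded most responses. For 6212 of 9366 genes (66.3%) the 95% interval of the log2 fold change lay within 1.5-fold in both directions. This was the case for 1701 of the 1723 genes above 100 CPM on average, but for only 216 of the 2041 genes under 10 CPM, where larger changes were not detectable at this depth. The median standard error was 0.17 and the median size of the estimate 0.11 on the log2 scale, and 242 genes had an estimate beyond 0.5 and 3 genes beyond 1.

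The pairs shared little of their Bch to untreated ratios. Across the genes tested, the correlation of the log2 ratios of 2 pairs ranged from -0.11 to 0.15 (median 0.013, 28 combinations), and it was no higher between pairs of 1 set (median 0.011, 12 combinations) than between sets (median 0.016, 16 combinations). The same ratio measured in TR1 and in TR2 of a pair correlated at 0.491 to 0.674 (median 0.577, 8 pairs). Technical replicates are libraries of the same cells, and genes are not independent replicates, so these values describe likeness only. In a principal component analysis of the 500 most variable genes, BR accounted for 70.6% of the summed squares among the 16 sums, the set, which is part of BR, for 32.6% and treatment for 4.72%. The distance between the untreated and treated sum of a pair was 9.75 ± 3.26 (SD, n = 8), against 11.8 ± 2.54 (SD) between untreated sums of different mice of 1 set.

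Among the 400 genes that were higher in at least 7 of 8 pairs, the smallest p belonged to the linker histone gene H1f4, and H1f5 was also among the 12 leading genes. Linker histones bind the DNA between nucleosomes and compact chromatin, and the replication-dependent forms are made mainly in S phase from short mRNAs that usually end in a stem-loop in place of a poly(A) tail. H1f4 (chromosome 13, 23621777 to 23622558 of GRCm38) ranged from 53.2 to 117 CPM untreated (median 67.0) and from 71.5 to 182 CPM with Bch (median 93.7). The groups overlapped, but the level was higher with Bch in 8 of 8 pairs, with a log2 fold change of 0.46 (SE 0.10, adjusted p = 0.383) and a 95% interval of 0.24 to 0.67. H1f5 (chromosome 13, 21779832 to 21780625) ranged from 108 to 202 CPM untreated (median 163) and from 114 to 379 CPM with Bch (median 209). It was higher in 7 of 8 pairs, with 0.37 (SE 0.10, adjusted p = 0.488), and the estimate was 0.14 in BR1 to BR4 and 0.58 in BR7 to BR10. These genes were chosen by the same values, so their p-values only describe them.

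The promoters of both genes were read from RefSeq (GRCm38.p6) because the replication-dependent linker histones share 2 known elements, the H1 box AAACACA and the CCAAT box CCAAT, each searched on both strands without overlap between them. The 250 bases before each start are shown 5′ to 3′, with these elements in capitals. The window of H1f4 lies on chr13:23622559-23622808 and that of H1f5 on chr13:21780626-21780875, both on the minus strand.
H1f4 promoter: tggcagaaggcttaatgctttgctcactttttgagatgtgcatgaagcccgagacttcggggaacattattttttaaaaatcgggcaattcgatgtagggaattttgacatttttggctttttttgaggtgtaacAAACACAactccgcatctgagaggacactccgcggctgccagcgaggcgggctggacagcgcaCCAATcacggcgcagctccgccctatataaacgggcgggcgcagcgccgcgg
H1f5 promoter: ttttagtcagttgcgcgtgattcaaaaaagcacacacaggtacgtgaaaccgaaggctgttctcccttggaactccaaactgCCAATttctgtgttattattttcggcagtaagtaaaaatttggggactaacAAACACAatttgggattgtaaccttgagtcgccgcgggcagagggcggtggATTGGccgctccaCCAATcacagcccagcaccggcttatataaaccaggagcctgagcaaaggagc

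The H1 box began 115 bases before the start of H1f4 and 117 before that of H1f5, and the nearest CCAAT box 52 and 53 bases before. H1f3 and H1f2 held the H1 box at 122 and 112 bases, while H1f1, H1f0 and H1f10 did not hold these letters in the window. Over all 32851 promoter windows of the same length, 6.25% held the H1 box and 33.8% a CCAAT box, and 3.94% and 35.8% among the promoters of genes tested. Among the linker histone genes tested, 4 had an estimate above 0 and 3 below, the lowest at -0.27. The median of the list was above that of all genes in 4 of 8 pairs. Values of the other members differed in their sign across pairs. H1f3 ranged from 9.68 to 24.4 CPM untreated (median 15.4) and from 11.7 to 31.0 CPM with Bch (median 19.9) and was higher in only 4 of 8 pairs, with 0.39 (SE 0.19, adjusted p = 0.906), which was 0.21 without BR1. H1f0, which is replication-independent, ranged from 271 to 533 CPM untreated (median 417) and from 226 to 577 CPM with Bch (median 387), with -0.13 (SE 0.12, adjusted p = 0.910) and from -0.25 to -0.04 without each pair in turn, the latter without BR3. Of the 7 linker histone genes tested, 2 had an unadjusted p under 0.05, both higher, and of 27 core histone genes 4 were higher and 1 lower, beside 3.26% and 2.19% of all genes. Both lists were chosen after values were seen.

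**Figure D2:**
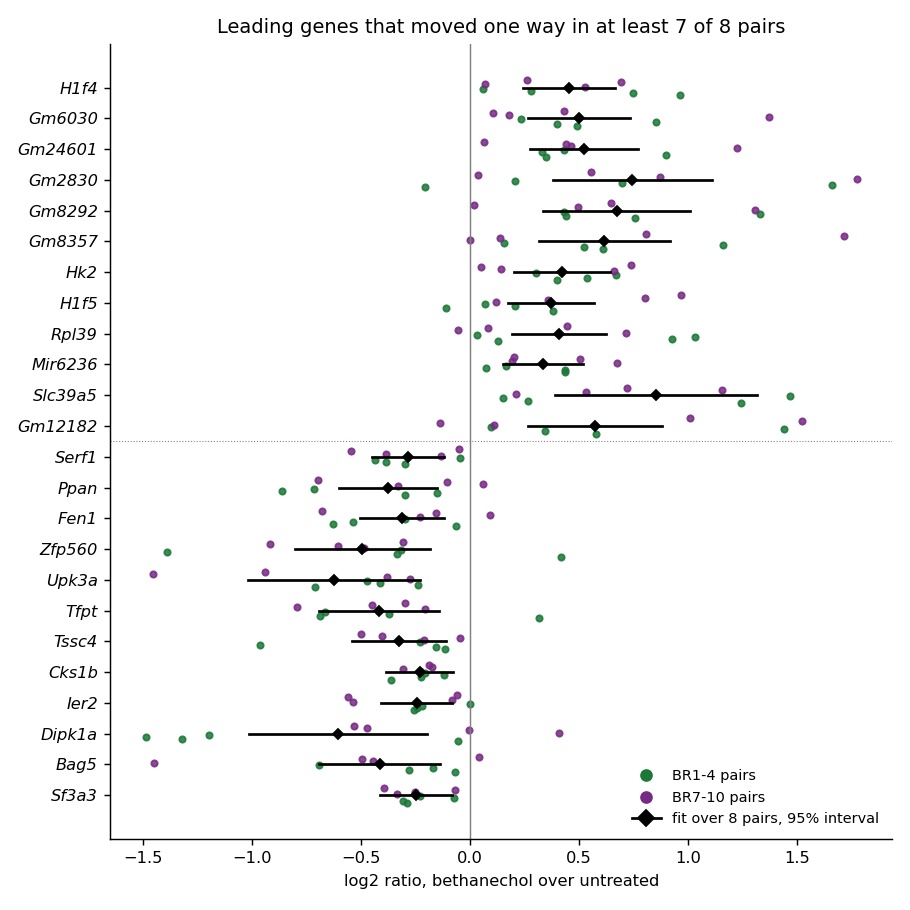
Log2 ratio of Bch to untreated (x axis) in each of the 8 pairs for the 12 higher and 12 lower leading genes (y axis), with BR1 to BR4 in green, BR7 to BR10 in purple and the common estimate with its 95% interval in black. The points of H1f4, Hk2 and Slc39a5 all lie right of 0 and those of Serf1, Cks1b and Sf3a3 left of it.

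Features of cytosolic ribosomal RNA, with Mir6236 counted among them, were higher in more pairs than the other gene groups described. This list was chosen after values were seen. The 4 that passed the filter, Gm24601, CT010467.1, n-R5-8s1 and Mir6236, were higher with Bch at an unadjusted p under 0.05, beside 3.26% of all genes. Their median log2 fold change was 0.38 beside 0.0052 over all genes tested. The median of the group was above that of all genes in 8 of 8 pairs, by 0.12 to 0.86. CT010467.1, annotated as ribosomal RNA (chromosome 17, 39846353 to 39848827), was by far the most counted. It ranged from 6304 to 18649.8 CPM untreated (median 13568) and from 11254 to 22662 CPM with Bch (median 15739) and was higher in 7 of 8 pairs, with 0.36 (SE 0.11, adjusted p = 0.758). Gm24601 (chromosome 6, 94826781 to 94826923) ranged from 22.6 to 70.6 CPM untreated (median 45.4) and from 36.0 to 117 CPM with Bch (median 61.1), with 0.52 (SE 0.12, adjusted p = 0.383) and 8 of 8 pairs higher. Mir6236 (chromosome 9, 110281287 to 110281409) is annotated as a miRNA gene, and is grouped here because its sequence is widely held to belong to ribosomal RNA. It ranged from 1847 to 3346 CPM untreated (median 2714) and from 2619 to 4187 CPM with Bch (median 3212) and was higher in 8 of 8 pairs, with 0.34 (SE 0.09, adjusted p = 0.488). Its mature form is shown from RefSeq with the seed, bases 2 to 8, in capitals, because an oligo-dT library counts the transcript around it and not this small RNA (chr9:110281353-110281371, plus strand).
mmu-miR-6236: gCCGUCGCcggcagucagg

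The mitochondrial ribosomal RNA mt-Rnr1, which also passed the filter and is not part of this group, ranged from 6556 to 17411 CPM untreated (median 12825) and from 6883 to 20111 CPM with Bch (median 13341). It was higher in 5 of 8 pairs, with 0.23 (SE 0.12, adjusted p = 0.906), and 0.12 without BR10. Summed over the cytosolic features and Mir6236, the group took 0.812% to 2.07% of the UMIs untreated (median 1.70%) and 1.45% to 2.40% with Bch (median 1.93%), and this share was higher in 8 of 8 pairs. Cytosolic ribosomal RNAs carry no poly(A) tail as a rule. The list and the share were chosen after values were seen, and the part of this share in other results was not tested.

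Processed pseudogenes, which are intronless copies of mRNAs in the genome, were another group with most members above 0. Of the 581 tested, 82 were higher and 1 lower at an unadjusted p under 0.05, beside 3.26% and 2.19% of all genes, and 86 were higher and 4 lower in at least 7 of 8 pairs, against 4.27% and 3.73% of all genes. Their median log2 fold change was 0.22, with 0.33 in BR1 to BR4 and 0.13 in BR7 to BR10, and the median was above that of all genes in 6 of 8 pairs. Gm6030, Gm2830, Gm8292, Gm8357 and Gm12182 were among the 12 leading higher genes. Rps24-ps3, a copy of Rps24, ranged from 71.0 to 154 CPM untreated (median 101) and from 88.8 to 517 CPM with Bch (median 147) and was higher in 8 of 8 pairs, with 0.65 (SE 0.16, adjusted p = 0.685). Reads cannot always tell such copies from their parents. Of 65-base words, the length of the cDNA read, in the last 500 bases of the transcripts, 53% for Rps24-ps3 stood in other genes as well, mostly in Rps24, and 513 of the 581 pseudogenes shared at least 1 word and 165 over 50% of their words. Levels of these genes are therefore uncertain, and this list was chosen after values were seen.

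The parents of many of these copies, the cytosolic ribosomal proteins, held 24 higher genes and 1 lower gene of 87 tested at an unadjusted p under 0.05, beside 3.26% and 2.19% of all genes. In at least 7 of 8 pairs 13 were higher and 1 lower, beside 4.27% and 3.73% of all genes. Rpl39, a subunit at the exit of the large subunit's peptide tunnel, ranged from 705 to 1556 CPM untreated (median 1195) and from 1145 to 2461 CPM with Bch (median 1518) and was higher in 7 of 8 pairs, with 0.41 (SE 0.11, adjusted p = 0.488). Rps26 of the small subunit ranged from 2712 to 4419 CPM untreated (median 3023) and from 3065 to 7577 CPM with Bch (median 4097), with 0.50 (SE 0.13, adjusted p = 0.685) and 7 of 8 pairs higher. The responses of the list were not alike in the sets, a difference that was not tested for the list. Its median log2 fold change was 0.16 over all pairs, 0.32 in BR1 to BR4 and 0.01 in BR7 to BR10, and in the 8 pairs it stood from -0.37 to 0.53 relative to all genes. As a share of all UMIs, ribosomal protein genes took 14.0% to 18.2% untreated and 14.4% to 18.0% with Bch, higher in 5 of 8 pairs (two-sided exact permutation test over the pairs, p = 0.109, adjusted over 4 shares and totals p = 0.219, smallest possible p = 0.00781). Levels of the list also differed between libraries of the same cells. Of 100 genes with a level over 2-fold apart between TR1 and TR2, among 8861 with at least 200 UMIs, 38 were ribosomal protein genes, with Fau at a log2 ratio of -4.96 (TR1 to TR2). Of these 38 ribosomal protein genes 10 were higher and 0 lower with Bch at an unadjusted p under 0.05, and of the other 49 tested 14 were higher and 1 lower. TR1 alone gave 21 higher and 1 lower and TR2 alone 20 and 0, and the cause of the difference in level was not tested.

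Outside the ribosome, glycolysis held more members under an unadjusted p of 0.05 than any other of the fixed lists. Of 27 tested, 7 were higher and 0 lower at an unadjusted p under 0.05, beside 3.26% and 2.19% of all genes, and 7 were higher and 0 lower in at least 7 of 8 pairs, beside 4.27% and 3.73%. Hk2, the hexokinase that commits glucose to the pathway in growing cells, ranged from 30.2 to 80.4 CPM untreated (median 55.2) and from 48.7 to 102 CPM with Bch (median 80.6). It was higher in 8 of 8 pairs although the groups overlapped, with 0.42 (SE 0.11, adjusted p = 0.488). Its estimates were 0.46 in BR1 to BR4 and 0.39 in BR7 to BR10, which the choice of the leading genes by their pairs had used. The glucose transporter Slc2a1 ranged from 13.3 to 29.9 CPM untreated (median 20.9) and from 16.6 to 56.2 CPM with Bch (median 29.1) and was higher in 7 of 8 pairs, with 0.52 (SE 0.16, adjusted p = 0.809). Gpi1, glucose-6-phosphate isomerase, was higher in 8 of 8 pairs by a small amount, 0.22 (SE 0.08, adjusted p = 0.893).

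Further members were the isoenzyme Hk1, a transporter and a mutase. Hk1 was at 0.61 (SE 0.21, adjusted p = 0.879) in 7 of 8 pairs, the lactate transporter Slc16a1 at 0.37 (SE 0.16, adjusted p = 0.893) in 7 and phosphoglycerate mutase Pgam1 at 0.66 (SE 0.29, adjusted p = 0.902) in 6. The estimate of Pgam1 was 0.07 in BR1 to BR4 and 1.17 in BR7 to BR10, and 45.1% of its 65-base words stood in other genes. Ldha, lactate dehydrogenase A and the most counted member, ranged from 1680.4 to 3449 CPM untreated (median 2875) and from 1446 to 3972 CPM with Bch (median 3244). It was higher in only 4 of 8 pairs, with 0.03 (SE 0.10, adjusted p = 0.986) and a 95% interval of -0.17 to 0.22, so the enzyme that makes lactate did not share the sign of Hk2 across pairs. Gapdh was at 0.42 (SE 0.12, adjusted p = 0.685) in 6 of 8 pairs, but 41.1% of its 65-base words stood in other genes, and the log2 ratio of its level in TR1 to that in TR2 was -5.62.

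The median of the glycolysis list was 0.14, with 0.07 in BR1 to BR4 and 0.23 in BR7 to BR10. In the 8 pairs it stood from -0.12 to 0.39 relative to all genes, above them in 6. A list of targets of the hypoxia-inducible factors, which shares Slc2a1 with the glycolysis list, had a median of 0.14, and 3 of 25 were higher and 0 lower at an unadjusted p under 0.05, beside 3.26% and 2.19% of all genes. These were Egln3 at 0.43 (SE 0.13, adjusted p = 0.809), the Slc2a1 already counted above and Ddit4 at 0.24 (SE 0.09, adjusted p = 0.893). Egln3 was at 0.18 in BR1 to BR4 and 0.62 in BR7 to BR10, Slc2a1 at 0.20 and 0.76 and Ddit4 at 0.17 and 0.32. The median of the list was 0.04 in BR1 to BR4 and 0.25 in BR7 to BR10, a difference that was not tested for the list. It was above that of all genes in 5 of 8 pairs. The core of the element that hypoxia-inducible factors bind is ACGTG, searched on either strand. It stood in the 250 bases before the start of 11 of the 27 glycolysis genes, including Hk2, Slc2a1, Slc16a1 and also Ldha. The share was 16.6% among all promoter windows and 22.8% among those of genes tested. The letters were found both in members that were higher in at least 7 pairs and in a member that was not. They were absent before Gpi1 and Hk1, which were also higher in at least 7 pairs. The nuclear respiratory chain subunits had 0 of 74 members past an unadjusted p of 0.05 with a median of -0.05, 58 of them below 0, beside 4557 of all 9366 genes.

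**Figure D3:**
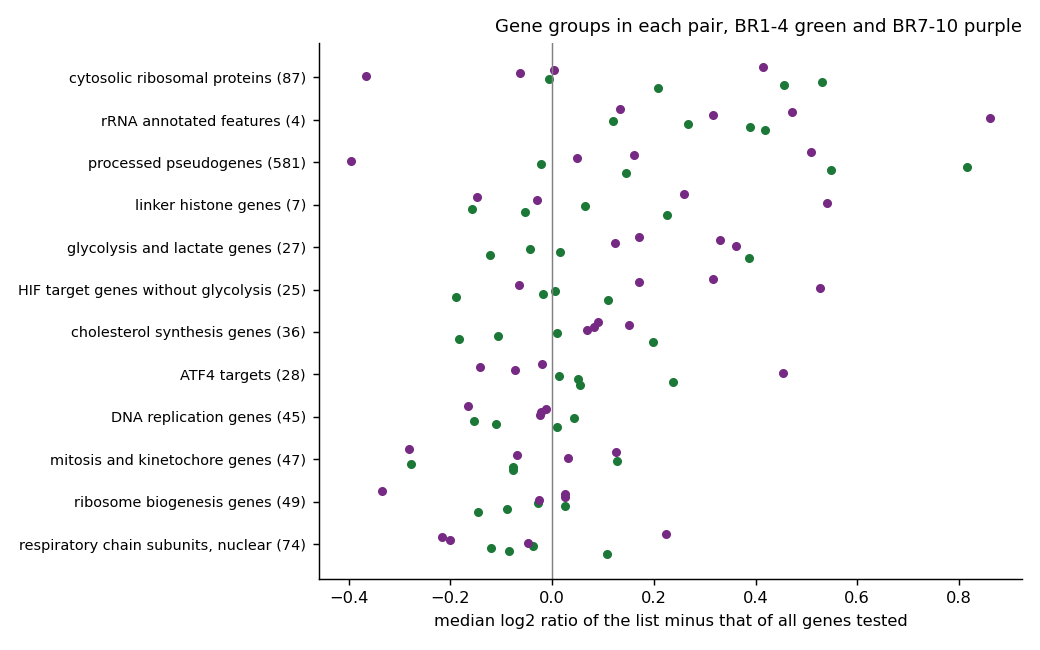
Median log2 ratio of each gene group minus that of all genes tested (x axis) in each of the 8 pairs, with the number of genes tested in brackets, BR1 to BR4 in green and BR7 to BR10 in purple. The list of HIF (hypoxia-inducible factor) targets shares Slc2a1 with the glycolysis list. The cytosolic ribosomal RNA features, Mir6236 included, lie right of 0 in all 8 pairs, glycolysis in 6 of 8 and ribosomal proteins in 5 of 8.

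Outside these groups, several single genes were higher in every pair. Slc39a5, a zinc transporter of the basolateral membrane, ranged from 1.54 to 13.6 CPM untreated (median 10.3) and from 4.06 to 28.7 CPM with Bch (median 15.6). It had the largest estimate among the 12 leading genes, 0.86 (SE 0.23, adjusted p = 0.488), and was higher in 8 of 8 pairs, although 3 of the 8 untreated sums lay under 5 CPM. Lgals8, a lectin that binds damaged endomembranes, ranged from 3.55 to 14.3 CPM untreated (median 8.66) and from 9.97 to 20.7 CPM with Bch (median 15.4), with 0.71 (SE 0.21, adjusted p = 0.687) in 8 of 8 pairs. The proprotein convertase Furin ranged from 6.41 to 12.4 CPM untreated (median 10.6) and from 11.7 to 17.7 CPM with Bch (median 14.7), and only a narrow band was shared by both groups. Its log2 fold change was 0.54 (SE 0.20, adjusted p = 0.893), again in 8 of 8 pairs. The actin regulators Wasf2 at 0.31 (SE 0.11, adjusted p = 0.879) and Pak2 at 0.30 (SE 0.11, adjusted p = 0.893) were higher in all pairs too. Lgals8, Furin, Wasf2 and Pak2 were named after their values were seen.

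The 12 leading genes that were lower in at least 7 of 8 pairs had estimates from -0.63 to -0.23. Serf1, which encodes a small protein that modifies aggregation, had the smallest p and ranged from 142 to 228 CPM untreated (median 179.6) and from 133 to 208 CPM with Bch (median 139.6). It was lower in 8 of 8 pairs, with -0.28 (SE 0.08, adjusted p = 0.685). Its estimates were -0.29 in BR1 to BR4 and -0.28 in BR7 to BR10, values that the choice by pairs had used. Cks1b, a cofactor of cyclin-dependent kinases, ranged from 197 to 256 CPM untreated (median 227) and from 170.2 to 219 CPM with Bch (median 190.2) and Sf3a3, a splicing factor subunit, from 117 to 170.2 CPM untreated (median 148) and from 92.2 to 150.0 CPM with Bch (median 124). Each was lower in 8 of 8 pairs, with -0.23 (SE 0.08, adjusted p = 0.826) and -0.25 (SE 0.08, adjusted p = 0.826). Upk3a, a uroplakin, had the lowest estimate among the 12 at -0.63 (SE 0.20, adjusted p = 0.809) and was lower in 8 of 8 pairs, as was Tssc4 at -0.33 (SE 0.11, adjusted p = 0.826).

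Factors of ribosome assembly and of DNA replication were among the rest of the 12. Ppan, which acts in assembly of the large ribosomal subunit, ranged from 57.7 to 91.7 CPM untreated (median 76.9) and from 41.6 to 85.2 CPM with Bch (median 56.1) and was lower in 7 of 8 pairs, with -0.38 (SE 0.11, adjusted p = 0.758). The flap endonuclease Fen1 ranged from 89.5 to 157 CPM untreated (median 118) and from 75.3 to 115 CPM with Bch (median 95.2), with -0.31 (SE 0.10, adjusted p = 0.809) in 7 of 8 pairs. Their lists are given by their genes under an unadjusted p of 0.05, beside 3.26% and 2.19% of all genes. Of 49 ribosome biogenesis genes 0 were higher and 2 lower (median -0.07), of 45 DNA replication genes 0 and 2 (median -0.07) and of 47 mitosis genes 0 and 2 (median -0.05), which besides Ppan and Fen1 were Utp15, Rfc2, Spc25 and Pttg1. Ier2, described with the immediate early genes, Zfp560, Tfpt, Dipk1a and Bag5 completed the 12. The last 4 had log2 fold changes of -0.49, -0.42, -0.61 and -0.42.

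**Figure D4:**
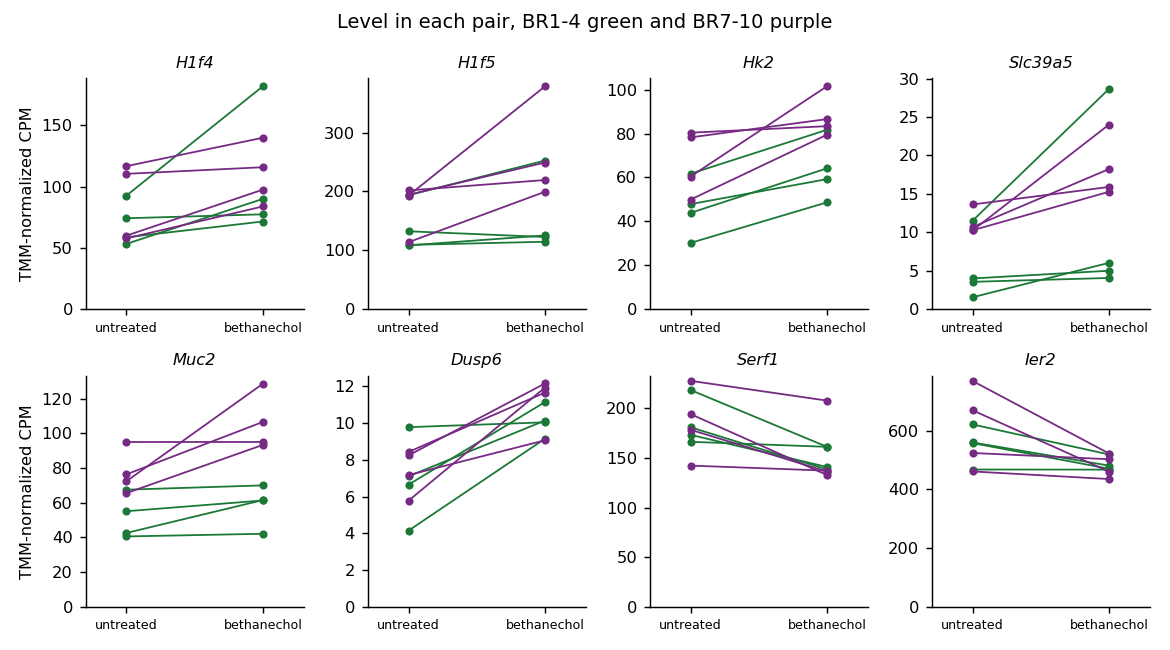
TMM-normalized CPM (y axes, from 0) of 8 genes in the untreated and Bch-treated sum of each pair (x axes), joined by a line, with BR1 to BR4 in green and BR7 to BR10 in purple. H1f4, Hk2, Slc39a5, Muc2 and Dusp6 have no falling line and Serf1 and Ier2 no rising one.

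The pathways that muscarinic receptors are known to engage were described by lists. Of 22 tested genes of muscarinic receptors, Gq and calcium signalling, 1 was higher and 0 lower at an unadjusted p under 0.05, beside 3.26% and 2.19% of all genes, with a median of -0.02. That gene was Atp2a2, the pump that refills the endoplasmic reticulum with calcium. It ranged from 22.1 to 44.5 CPM untreated (median 34.9) and from 28.1 to 55.6 CPM with Bch (median 42.0) and was higher in 8 of 8 pairs, with 0.27 (SE 0.13, adjusted p = 0.906). The calcium-dependent kinase Camk2d was also higher in 8 of 8 pairs at 0.29 (SE 0.16, adjusted p = 0.906), and 4 of the 22 members were higher and 0 lower in at least 7 pairs, beside 4.27% and 3.73% of all genes.

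Of 20 genes of the EGF receptor family, its ligands and feedback regulators, 2 were higher and 0 lower at an unadjusted p under 0.05, beside 3.26% and 2.19% of all genes. Dusp6, a phosphatase that dampens ERK and is itself induced by it, ranged from 4.15 to 9.78 CPM untreated (median 7.14) and from 9.06 to 12.2 CPM with Bch (median 10.6). Only the highest untreated sum exceeded the lowest treated sums, and the level was higher in 8 of 8 pairs, with 0.59 (SE 0.24, adjusted p = 0.893). The ligand Btc, betacellulin, ranged from 5.12 to 19.5 CPM untreated (median 9.06) and from 7.88 to 22.6 CPM with Bch (median 15.2) and was higher in 6 of 8 pairs, with 0.59 (SE 0.22, adjusted p = 0.893). Levels of Dusp6 and Btc lay near 10 CPM, where the interval of Dusp6 reached from 0.11 to 1.07.

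Immediate early genes, which growth signals induce within minutes, had values on both sides of 0. Ier2 ranged from 461 to 768 CPM untreated (median 558) and from 435 to 522 CPM with Bch (median 475) and was lower in 8 of 8 pairs, with -0.24 (SE 0.08, adjusted p = 0.826), although in 1 pair the ratio was close to 1. Fosl2, a partner of Jun in the AP-1 factor, ranged from 7.10 to 27.2 CPM untreated (median 21.8) and from 23.8 to 32.2 CPM with Bch (median 29.3) and was higher in 8 of 8 pairs, with 0.44 (SE 0.16, adjusted p = 0.893). Fosl1 was at 0.65 (SE 0.26, adjusted p = 0.893) but higher in only 5 of 8 pairs. Over the 23 members tested, 2 were higher and 1 lower at an unadjusted p under 0.05, beside 3.26% and 2.19% of all genes.

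Lgr5, Ascl2 and Axin2, fixed as markers of the sorted cells, had common estimates between -0.1 and 0, although each had opposite signs in the sets. Lgr5 ranged from 12.5 to 39.2 CPM untreated (median 28.0) and from 16.1 to 31.3 CPM with Bch (median 27.2) and was higher in 5 of 8 pairs, with a common estimate of -0.08 (SE 0.19, adjusted p = 0.982) and a 95% interval of -0.47 to 0.30. Ascl2, a transcription factor of the same stem cells, was at -0.09 (SE 0.09, adjusted p = 0.916) and the Wnt target Axin2 at -0.04 (SE 0.17, adjusted p = 0.992). Without each pair in turn, Lgr5 lay between -0.21 and 0.10 and Axin2 between -0.13 and 0.11. Of 20 crypt stem and progenitor markers, 0 were higher and 1 lower at an unadjusted p under 0.05, beside 3.26% and 2.19% of all genes. That marker was Rnf43, a ligase that removes Wnt receptors, at -0.36 (SE 0.18, adjusted p = 0.906) and at -0.21 without BR3, lower in 5 of 8 pairs.

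Muc2, the gel-forming mucin of goblet cells, was the member of its list with the smallest p. It ranged from 40.5 to 95 CPM untreated (median 66.5) and from 42.1 to 129 CPM with Bch (median 81.6) and was higher in 8 of 8 pairs, with 0.35 (SE 0.11, adjusted p = 0.809), 0.21 in BR1 to BR4 and 0.46 in BR7 to BR10. In BR8 the ratio was close to 1, and by CPM of the library total Muc2 was lower with Bch in BR1, so the count of 8 pairs holds for TMM scaling. Fcgbp, another mucus protein of goblet cells, was at 0.36 (SE 0.16, adjusted p = 0.906) in 6 of 8 pairs and at 0.24 without BR10. The summed level of 6 goblet markers (Muc2, Fcgbp, Tff3, Spink4, Clca1 and Agr2) ranged from 3569.8 to 8088 CPM untreated and from 3646 to 12462 CPM with Bch (CPM of the library total) and was higher in 2 of 8 pairs, a sum made up mostly of Spink4, Agr2 and Tff3. Gene by gene, 14 of the 19 goblet genes tested had an estimate above 0, beside 4809 of all 9366 genes, with a median of 0.07, and 2 were higher and 0 lower at an unadjusted p under 0.05, beside 3.26% and 2.19% of all genes. The median of the list was above that of all genes in 5 of 8 pairs. Of 22 colonocyte genes tested, 16 had an estimate above 0 and 6 below, and 1 was higher and 0 lower at that p, while the summed level of 5 colonocyte markers was higher in 3 of 8 pairs. The gene under that p, Selenbp1, was at 0.41 (SE 0.18, adjusted p = 0.906) in 5 of 8 pairs and at 0.27 without BR1. Car1 was at -0.22 (SE 0.11, adjusted p = 0.906), lower in 6 of 8 pairs, and at -0.11 without BR2. Of 9 enteroendocrine genes tested, 5 had an estimate above 0 and 4 below, with a median of 0.01, and 0 were higher and 1 lower at an unadjusted p under 0.05. That gene, Tac1, was at -0.72 (SE 0.32, adjusted p = 0.905), lower in 6 of 8 pairs. Summed tuft markers (Dclk1, Trpm5, Pou2f3 and Avil) reached at most 11.6 CPM and were lower with Bch in 8 of 8 pairs, at 11 UMIs or fewer for each. Hpgds, the single gene of the tuft list that passed the filter, was at -0.22 (SE 0.12, adjusted p = 0.906) and higher in 3 of 8 pairs. Tuft markers were at the limit of these counts, and their part in other results was not tested.

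The remaining lists are given by their genes under an unadjusted p of 0.05, which 3.26% of all genes met as higher and 2.19% as lower. Of 36 cholesterol synthesis genes 3 were higher and 0 lower, with Hmgcs1, an early enzyme of the pathway, at 0.28 (SE 0.12, adjusted p = 0.902) in 7 of 8 pairs and Fdps at 0.21 (SE 0.09, adjusted p = 0.893) in 6, although 45.8% of the 65-base words of Fdps stood in other genes. Of 28 ATF4 targets 3 were higher and 0 lower, with the serine synthesis enzymes Phgdh at 0.19 (SE 0.09, adjusted p = 0.906) and Psph at 0.21 (SE 0.10, adjusted p = 0.906), the latter 0.12 without BR2 and each near 0 in BR7 to BR10 at 0.01 and -0.0032. Among 28 NRF2 and glutathione genes Gsr, glutathione reductase, was at 0.26 (SE 0.10, adjusted p = 0.893) and Gss, glutathione synthetase, at -0.21 (SE 0.08, adjusted p = 0.893). The DNA damage factor Ddb1 was the single member of 34 DNA repair genes under that p, at 0.31 (SE 0.11, adjusted p = 0.893). None was found among 20 p53 targets, 19 NF-kB genes, 24 genes of the endoplasmic reticulum stress response, 15 heat shock genes, 34 junction genes, 23 ion transport genes, 33 genes of mitochondrial import or 10 mitochondrially encoded genes.

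Rn7sk, a small nuclear RNA made by polymerase III, ranged from 51.3 to 211 CPM untreated (median 163) and from 138 to 1118 CPM with Bch (median 212) and was higher in 7 of 8 pairs, with 0.86 (SE 0.37, adjusted p = 0.906). Treated BR7 alone set the top of this range, and without BR7 the estimate was 0.57. Of its 65-base words 66.3% stood in other genes, mainly Gm24447, so its level is uncertain. Rn7sk made up 92.0% to 99.6% of the UMIs of the polymerase III RNAs counted, so their share is a measure of Rn7sk and no result for a class. This share was 0.00568% to 0.0222% of UMIs untreated and 0.0151% to 0.100% with Bch, higher in 7 of 8 pairs (two-sided exact permutation test, p = 0.0313, adjusted over 4 tests p = 0.125). The share of mitochondrial transcripts and the total of UMIs were each higher in 5 of 8 pairs (same exact permutation test, adjusted p = 0.656 and 0.417).

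Whether the response differed between the sets was tested as an interaction of set and treatment. Of 9366 genes, 0 had an adjusted p under 0.05 for this term (edgeR's quasi-likelihood test), and 421 (4.49%) had an unadjusted p under 0.05. DESeq2's Wald test of the term also gave 0, with 242 under an unadjusted p of 0.05. Without BR10, edgeR gave 696 genes under that unadjusted p, still with 0 past the adjusted threshold, and without the filter on low counts 1 gene, Gcg, passed. Of the 767 genes higher in 4 of 4 pairs of BR1 to BR4 (8.19% of genes tested), 54 were also higher in 4 of 4 pairs of BR7 to BR10, or 7.04%, beside 5.99% of all genes. Of the 651 genes lower in 4 of 4 pairs of BR1 to BR4 (6.95%), 41 were lower in 4 of 4 of the other set, or 6.30%, beside 5.34% of all genes. Both shares lay near those of all genes.

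The gene with the smallest p of the interaction was Fam174c, a membrane protein gene of little known function. It ranged from 3.55 to 35.9 CPM untreated (median 21.6) and from 12.7 to 31.1 CPM with Bch (median 21.7) and was higher in 4 of 4 pairs of BR1 to BR4 at 0.95 and lower in 4 of 4 pairs of BR7 to BR10 at -0.66, a difference (BR7 to BR10 minus BR1 to BR4) of -1.61 (SE 0.35, adjusted p = 0.327). Its common estimate was 0.05 (SE 0.23, adjusted p = 0.992). Gcg, which encodes proglucagon, was at 0.43 and -0.81, with a difference of -1.25 (SE 0.29, adjusted p = 0.613), and untreated BR7 stood far above all other sums. Its common estimate was -0.26, and -0.08 without BR7. Cul5, a scaffold of ubiquitin ligases, was at -0.50 and 1.00, with a difference of 1.49 (SE 0.37, adjusted p = 0.694) and a common estimate of 0.26 that lay between 0.07 and 0.42 without each pair in turn.

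Lgr5 also had opposite signs, with -0.66 in BR1 to BR4 and 0.50 in BR7 to BR10, and its common estimate lay between them. The difference was 1.15 (SE 0.32, adjusted p = 0.999). Ascl2 went the other way at 0.12 and -0.31, with a difference of -0.44 (SE 0.16, adjusted p = 0.999), and Axin2 differed by 0.57 (SE 0.32, adjusted p = 0.999). For these 3 genes the adjusted threshold was not passed, and sex, source and kit cannot be told apart in any of them.

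**Figure D5:**
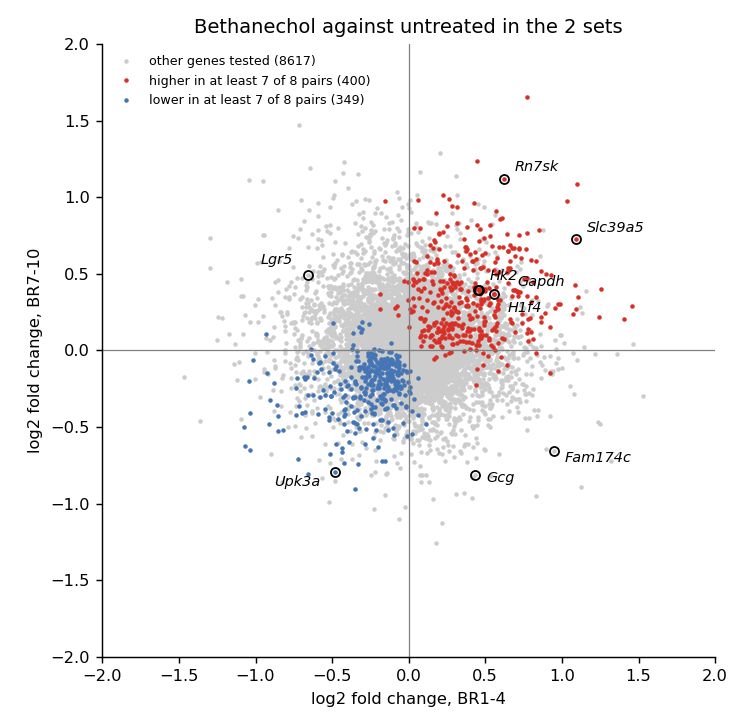
Log2 fold change of Bch against untreated in BR1 to BR4 (x axis) and in BR7 to BR10 (y axis) for each of the 9366 genes tested, with the genes higher in at least 7 of 8 pairs in red (400), lower in blue (349), and named genes circled. The cloud has no visible slope, and Lgr5, Gcg and Fam174c lie in quadrants of opposite sign.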

How the data were processed

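RNA of sorted Lgr5-EGFP+ cells was primed with oligo-dT, and per the labels each cDNA read came with a barcode and UMI read. The authors deposited 1 table of raw UMI counts for 23517 genes in 32 columns, made with the Drop-seq tools. Their methods name GRCm38 and GRCh38, paired with a mouse and a human annotation. The genome build in the submitters' processing notes for these mouse libraries is GRCh38. Multi-mapping and strand handling were not given in the sources used here. Blank cells, 1520 genes in TR2, were read as 0, since no such gene had over 4 UMIs in a TR1 library.

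TR1 and TR2 were summed. Genes passed edgeR's filterByExpr, TMM factors were used, and Bch was tested with BR as block (edgeR 4.0.16, quasi-likelihood test, robust dispersion, Benjamini-Hochberg adjustment, R 4.3.3). Pair ratios used TMM scaling and a prior count of 2. By CPM of the library total, for example, Gpi1 and Fosl2 in BR10 and Pak2 and Wasf2 in BR1 were lower with Bch. Their counts of 8 pairs therefore hold for TMM scaling. Alternatives included DESeq2 1.42.0 and limma 3.58.1. Shares were tested by two-sided exact permutation of signs over the 8 pairs. The scripts were tested on simulated data.

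Same-numbered samples came from the same mouse by their labels. The correlation of their deviations from the group means ranged from -0.03 to 0.27 over the 8 pairs. The best correlated partner was the own pair member for BR1, BR2 and BR8, but not for BR3, BR4, BR7, BR9 or BR10. P-values measure the spread between mice.

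The pairs, gene lists and tests were chosen with earlier results of these data known. Named were the 12 genes of smallest p per direction among those moving the same way in at least 7 of 8 pairs, the 2 tested members of each list with the smallest p, the 3 genes of smallest interaction p, and Lgr5, Ascl2, Axin2, Chrm1 and Chrm3. The genes n-R5-8s1, CT010467.1, Rps26, Rps24-ps3, Gpi1, Hk1, Slc16a1, Pgam1, Ldha, Ddit4, H1f3, H1f0, Fosl1, Lgals8, Furin, Wasf2 and Pak2 were chosen after their values were seen. Promoters, the miRNA and the coordinates of H1f4 and H1f5 came from RefSeq (GRCm38.p6). Shared words and the other printed gene coordinates came from GENCODE M21.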

Additional observations from a re-analysis of the deposited data

Results flagged for a closer look

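Among 196 groups of 8 sums examined for named genes, 16 held a sum whose gap to its nearest neighbour was too wide for the group's range, and chance gives about 1 in 20 such groups. Treated BR7 was the high sum for the pseudogene Gm6030 at 218 CPM (median of the others 72.1), Gm8292 at 75.3 (24.6), Rps24-ps3 at 517 (144), Serf1 at 208 (138), Rn7sk at 1120 (175) and Hspa5 at 705 (341). Cxcl16, a chemokine, was also high there at 110 CPM (53.7).

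Untreated BR7 stood out for Gcg at 333 CPM (32). Untreated BR3, the shallowest sum, was lowest for Fosl2 at 7.1 CPM (22.5) and for Slc16a1 at 8.88 CPM (24.4). Untreated BR4 was high for Rps26 at 4420 CPM (3020), and untreated BR8 for the sodium channel subunit Scnn1a at 18.6 CPM (6.91). Treated BR1 was high for Ddit4 at 186 CPM (112) and low for Fcgbp at 22 CPM (55.7). Treated BR10 was high for the potassium channel subunit Kcne3 at 478 CPM (361) and low for the desmosomal cadherin Dsc2 at 33 CPM (50.2).

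Fam174c had opposite signs in all 4 pairs of each set, with a difference of -1.61 on the log2 scale, and the interaction test did not pass the adjusted threshold (edgeR's quasi-likelihood test, adjusted p = 0.33).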

How the results depend on the processing

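Of 9366 genes, 0 passed for the common effect. This count became 15 with no low count filter, 1 with TR1 alone (Gm8292), 2 with no robust dispersion (Rps24-ps3 and Gm6654), 2 in BR1 to BR4 alone (Rn7sk and Rps24-ps3), 1 after thinning to the shallowest sum (Rps24-ps3) and 295 with technical replicates as separate libraries, which treats libraries of the same cells as independent. It was 0 with no replicate block (327 genes under an unadjusted p of 0.05) and 0 without each pair in turn (409 to 710). An alternative chosen after seeing the data, without ribosomal RNA features and processed pseudogenes, also gave 0. Other than for the separate libraries, whose construction adds samples, the cause was not tested. Genes moving the same way in at least 7 pairs numbered 452 of 5579 tested (8.10%) after thinning, against 749 of 9366 (8.00%). The set difference gave 1 gene, Gcg, with no low count filter. Genes with intervals within 1.5-fold numbered 4016 in BR1 to BR4 alone, 3931 in BR7 to BR10 alone and 3998 after thinning, where fewer samples or genes entered.

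Signs turned for 28 of the values of named genes. In BR1 to BR4 alone these were Fcgbp at -0.047, Cxcl16 at -0.16, Lars2 at -0.027, Cul5 at -0.49, Chgb at -0.065, Ascl2 at 0.12, Gcg at 0.43 and Ldha at -0.084. In BR7 to BR10 alone they were Psph at -0.0028, Hspa8 at -0.029, Lgr5 at 0.49, Axin2 at 0.27 and Fam174c at -0.66. Rnf43 was at 0.0043 after thinning, Axin2 at 0.084 and Fam174c at -0.11 with TR1 alone, Fam174c at -0.015 with no replicate block and at -0.044 with separate libraries. Without each pair in turn, Lgr5 lay between -0.21 and 0.10, Ldha between -0.044 and 0.093, Axin2 between -0.13 and 0.11 and Fam174c between -0.11 and 0.20. Depth limits genes under 10 CPM.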
